A study of Mus musculus with 7 samples.

Results

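Blood-spinal cord barrier (BSCB) transporters are the membrane proteins by which endothelial cells (EC) of the spinal cord feed the tissue and keep foreign compounds out. The 8 genes described here were chosen by name, as nutrient carriers and efflux pumps of CNS endothelium, out of 21965 genes in the count table. They are Slc2a1, Slc16a1, Slc7a5, Mfsd2a, Slco1c1, Slco1a4, Abcb1a and Abcg2. All 8 were in the table and all 8 passed the filter on low counts, which left 15743 genes for testing.

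RNASeq was made from contused spinal cord 3 days post-injury (dpi 3), to compare the transcriptome of mice lacking BMAL1/ARNTL, a transcription factor of the circadian clock, with that of WT mice. The libraries labelled Bmal1-/-, here called KO-labelled, came from 3 mice (2 females and 1 male) with the germline Arntl tm1Bra allele on a C57BL/6 background (C57Bl/6J in the study's methods), bred from heterozygous parents. The 4 WT libraries came from C57BL/6 mice of the same substrain (2 females and 2 males), mostly bought from a supplier, with 1 littermate of the knockouts among them, so that breeding origin and genotype cannot be told apart. All mice were injured at 8 to 10 weeks of age by a moderate contusion (50 kdyn) of the T9 level under tribromoethanol, received buprenorphine and gentamicin, and were perfused with saline before a 5 mm segment around the epicenter was taken. There was 1 library per mouse, no uninjured cord was among these libraries, and the deletion was present in every cell type of the mouse.

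Tight junctions between EC of the CNS close the path between cells, so polar nutrients cross only where the EC carry a protein for them. Solute carriers bring in glucose, monocarboxylates, amino acids, lipids and hormones, and ATP-driven pumps return lipophilic compounds to the blood. Several of these genes are also used outside the EC, such as Slc16a1 in oligodendrocytes and Slc2a1 in astrocytes, and in bulk tissue fewer cells of a type and less RNA per cell cannot be told apart.

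Libraries held 38529644 to 44096737 counts. The males were KO-labelled replicate 3 and WT replicates 3 and 4, so leaving out a library also changed the balance of the sexes. Neuron, astrocyte and oligodendrocyte markers of spinal cord were counted in every library. WT replicate 3 lay apart from the other libraries on the first principal components, and held the highest summed level of the 15 pan-endothelial markers (1196 CPM, the share of a library's counts on a common scale after TMM normalization, against 767.6 to 838.9 CPM in the other WT libraries) and the lowest of 10 neuron markers (2328 CPM against 4165 to 5687). Arntl, the targeted gene, was counted at 24.1, 24.2 and 22.5 CPM in the KO-labelled libraries and at 14.7, 15.3, 11.9 and 13.4 CPM in WT, which goes against what the label alone would give. A count over the whole gene does not separate transcripts with and without the deleted part. Overlap of Arntl with antisense genes was not among the overlaps determined here. Nr1d1 and Dbp, direct targets of BMAL1 looked at for the labels and not by the rule for named genes, were lower, with log2 fold changes of -2.51 (adjusted p = 0.000456) and -1.85 (adjusted p = 0.00328) in the edgeR fit. A gene called higher or lower is so in the KO-labelled libraries, with WT as the reference.

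BMAL1 binds E-boxes, so the stretch of 250 bases before the transcription start was searched for the E-box CACGTG and for the E-prime-box CACGTT on both strands. RefSeq promoters of build GRCm38.p6 were at hand for 7 of the 8 genes, in 9 windows because Abcg2 has several starts, and the RefSeq start of Abcb1a lies far from that of the gene model used for its position. The E-box was in 1 of these genes, Slc16a1, and in 6.02% of the 32851 promoters of all genes. The E-prime-box was in 1 gene, Mfsd2a, and in 3.85% of all promoters. The window of Slc16a1 is shown because it holds the E-box and the gene had the largest positive difference of the 8, that of Mfsd2a because it holds the E-prime-box and the gene had the largest negative difference, and that of Slc2a1 because it is the most abundant of the 8 and holds neither. Capitals mark the motif, which begins 200 bases before the start in Slc16a1 and 108 before it in Mfsd2a, each strand is that of the gene, and a match is a match of letters only.
Slc16a1, chr3:104638414-104638663, plus strand: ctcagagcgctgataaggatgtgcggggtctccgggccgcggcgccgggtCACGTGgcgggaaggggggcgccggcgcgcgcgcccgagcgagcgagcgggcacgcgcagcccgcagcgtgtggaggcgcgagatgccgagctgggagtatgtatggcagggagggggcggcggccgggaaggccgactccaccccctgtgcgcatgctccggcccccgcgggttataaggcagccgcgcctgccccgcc
Mfsd2a, chr4:122961189-122961438, minus strand: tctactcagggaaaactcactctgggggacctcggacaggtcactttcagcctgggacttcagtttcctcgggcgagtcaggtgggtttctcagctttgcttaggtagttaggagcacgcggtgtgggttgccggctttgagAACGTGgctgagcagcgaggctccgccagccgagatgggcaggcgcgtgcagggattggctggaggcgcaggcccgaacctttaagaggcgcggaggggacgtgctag
Slc2a1, chr4:119108495-119108744, plus strand: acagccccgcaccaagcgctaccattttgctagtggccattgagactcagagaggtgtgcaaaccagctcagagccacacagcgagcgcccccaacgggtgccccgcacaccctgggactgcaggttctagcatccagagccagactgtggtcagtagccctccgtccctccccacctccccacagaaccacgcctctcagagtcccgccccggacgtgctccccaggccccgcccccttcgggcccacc

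The log2 fold changes of the transporters ran from -0.37 for Mfsd2a to 0.32 for Slc16a1. With edgeR's quasi-likelihood test and Benjamini-Hochberg adjustment over all genes tested, 0 of the 8 passed an adjusted p of 0.05, where 1.57% of all genes did. At an unadjusted p under 0.05 there were 2, Slc16a1 higher and Slc7a5 lower, against 20.9% of all genes. These were also the 2 genes whose groups did not overlap, against 26.9% of all genes. The median log2 fold change of the 8 genes was -0.07, beside -0.0057 over all genes tested, with 3 positive and 5 negative differences. DESeq2, the tool the study used, called 1 of the 8, Slc16a1, where it called 9.14% of its genes, and limma-voom called 0, where it called 1.31%. Without WT replicate 3 edgeR also called 1 of the 8, again Slc16a1, against 4.66% of all genes.

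**Figure D1:**
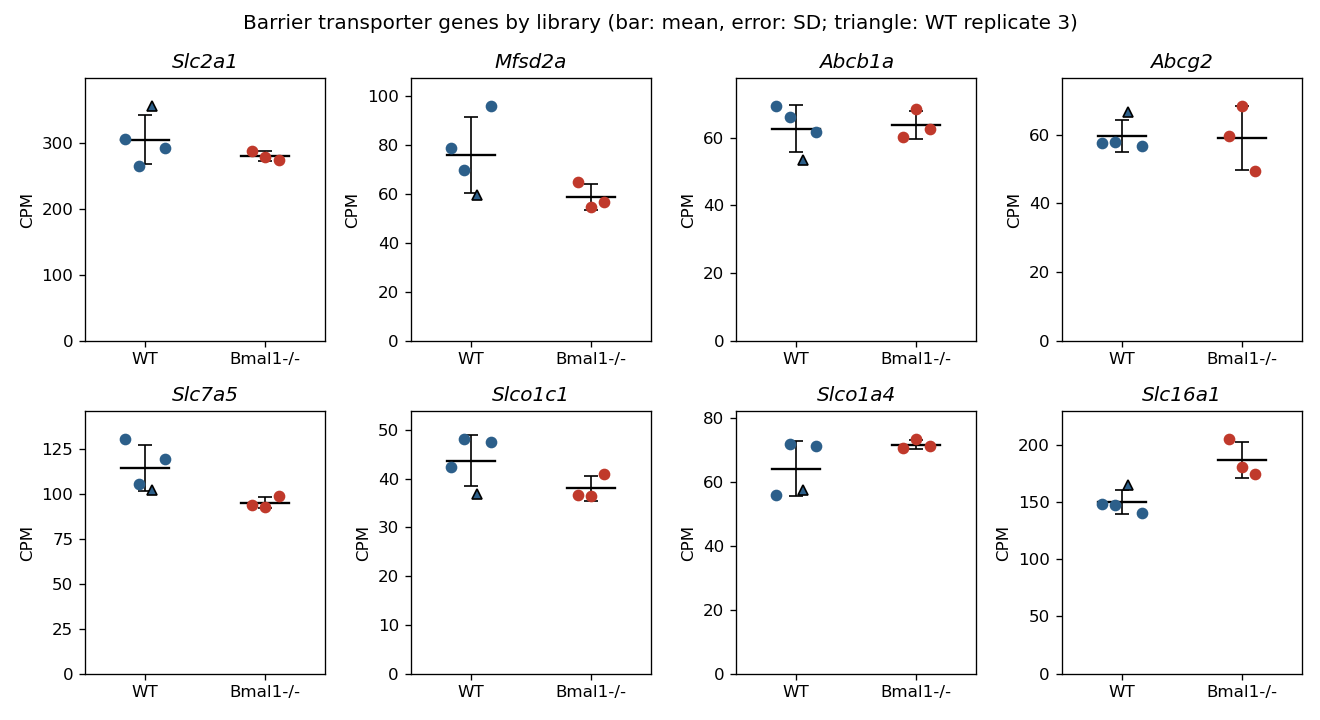
CPM of each transporter gene (vertical axes, each from 0) in the 4 WT and the 3 libraries labelled Bmal1-/-. Points are libraries, bars the mean and error bars the SD. The points of the groups are separate for Slc7a5 and Slc16a1 and overlap for the other 6 genes.

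Slc16a1 encodes the monocarboxylate transporter MCT1, which carries lactate, pyruvate and ketone bodies across the barrier and also serves oligodendrocytes. It lies on chromosome 3 of GRCm38 from 104638668 to 104658462 on the plus strand. Its level was 205, 181 and 175 CPM in the KO-labelled libraries and 148, 147, 165 and 140 CPM in WT. The lowest of the former was above the highest WT library, which was WT replicate 3. The means were 187 ± 15.9 CPM (SD, n = 3) and 150.2 ± 10.4 CPM (SD, n = 4), and the log2 fold change was 0.32 (SE 0.08, 95% confidence interval 0.12 to 0.51, adjusted p = 0.117 from edgeR). DESeq2 gave the same log2 value of 0.32 and an adjusted p of 0.0144. Without WT replicate 3 edgeR gave 0.36 with an adjusted p of 0.0372, while the adjusted p was 0.179 to 0.317 without any other library.

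Slc7a5 encodes LAT1, the light chain of the exchanger that brings large neutral amino acids such as leucine and tryptophan, and the drug L-DOPA, into the CNS. It lies on chromosome 8 from 121881150 to 121907694 on the minus strand. Its level was 94.2, 92.8 and 99.0 CPM in the KO-labelled libraries and 130.5, 106, 102 and 120 CPM in WT. The groups did not overlap, although WT replicate 3 came close. The log2 fold change was -0.27 (SE 0.09, 95% confidence interval -0.49 to -0.05, adjusted p = 0.189 from edgeR). Slc3a2, the heavy chain that pairs with LAT1, was counted at 202.5, 200.3 and 193 CPM against 221, 205, 244 and 233.5 CPM in WT. The groups of this partner did not overlap either, with a log2 fold change of -0.19 (SE 0.08, adjusted p = 0.229 from edgeR).

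Slc2a1 encodes GLUT1, the glucose carrier that defines barrier endothelium. It lies on chromosome 4 from 119108711 to 119137983 on the plus strand, and exons of an antisense gene, Gm12868, overlap it. Its level was 287, 279 and 273 CPM in the KO-labelled libraries and 306, 265, 355 and 292 CPM in WT. The 3 former libraries sat inside the WT range, which WT replicates 2 and 3 spanned. The log2 fold change was -0.12 (SE 0.10, 95% confidence interval -0.37 to 0.12, adjusted p = 0.476 from edgeR), and it was -0.04 without WT replicate 3.

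Mfsd2a encodes the carrier of lysophosphatidylcholine with docosahexaenoic acid, which is also known for holding down transcytosis in CNS EC. It lies on chromosome 4 from 122946850 to 122961188 on the minus strand. Its level was 64.8, 54.6 and 56.6 CPM in the KO-labelled libraries and 78.4, 69.4, 59.3 and 95.6 CPM in WT. WT replicate 3 was the lowest WT library and the only one inside the range of the KO-labelled libraries. The log2 fold change was -0.37 (SE 0.16, 95% confidence interval -0.74 to 0.003, adjusted p = 0.242 from edgeR), the largest absolute difference of the 8 genes. It was -0.47 (adjusted p = 0.0852) without WT replicate 3, where the groups no longer overlapped, and -0.24 (adjusted p = 0.336) without WT replicate 4.

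Slco1c1 encodes OATP1C1, which carries thyroxine, and Slco1a4 encodes OATP1A4, which carries organic anions such as bile acids and conjugated steroids. They lie on chromosome 6, Slco1c1 from 141524368 to 141570177 on the plus strand and Slco1a4 from 141805440 to 141856199 on the minus strand. Slco1c1 was counted at 36.6, 36.5 and 41.0 CPM in the KO-labelled libraries and at 42.4, 48.1, 36.9 and 47.5 CPM in WT. Only WT replicate 3 fell into the range of the KO-labelled libraries, and the log2 fold change was -0.20 (SE 0.10, 95% confidence interval -0.45 to 0.04, adjusted p = 0.299 from edgeR). Slco1a4 was counted at 70.4, 73.2 and 71.1 CPM in the KO-labelled libraries and at 55.9, 71.9, 57.3 and 71.2 CPM in WT. WT replicates 2 and 4 were level with those libraries and WT replicates 1 and 3 were below them. The log2 fold change was 0.16 (SE 0.10, 95% confidence interval -0.09 to 0.41, adjusted p = 0.376 from edgeR), of the opposite sign to that of Slco1c1, and it was 0.10 without WT replicate 1.

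Abcb1a and Abcg2 encode P-glycoprotein and BCRP, the main drug efflux pumps on the blood side of the EC. Abcb1a lies on chromosome 5 from 8660077 to 8748575 and Abcg2 on chromosome 6 from 58584523 to 58695676, both on the plus strand. Abcb1a was counted at 60.3, 68.4 and 62.7 CPM in the KO-labelled libraries and at 69.3, 66.2, 53.4 and 61.7 CPM in WT. The log2 fold change was 0.03 (SE 0.10, 95% confidence interval -0.20 to 0.26, adjusted p = 0.885 from edgeR), and the sign turned without WT replicate 3 (-0.04) or KO-labelled replicate 2 (-0.03). Abcg2 was counted at 59.6, 68.3 and 49.4 CPM in the KO-labelled libraries and at 57.5, 57.9, 66.6 and 56.8 CPM in WT. The highest and the lowest library of all 7 were both labelled Bmal1-/-. Its log2 fold change was -0.02 (SE 0.12, 95% confidence interval -0.29 to 0.26, adjusted p = 0.944 from edgeR), and it was 0.10 without KO-labelled replicate 3 and 0.04 without WT replicate 3.

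The counts of the efflux pump Abcb1a are the least certain of the 8 by shared sequence. Of its stretches of 75 bases, the nominal read length, 17.1% also occur in transcripts of other genes, among them its paralog Abcb1b, and exons of an antisense gene, Gm42686, overlap it. The share was 1.03% for Slco1a4 (with Slco1a5 and other Slco1a genes), 0.834% for Slc2a1, and 0 for the other 5 transporters. Abcb1b was counted at 14.7, 14.6 and 12.5 CPM in the KO-labelled libraries and at 14.2, 12.9, 19.8 and 17.8 CPM in WT, with a log2 fold change of -0.22 (SE 0.16, adjusted p = 0.424 from edgeR).

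Levels per length set the transporters in order. In RPKM, which divides the CPM by the length in kb of all exons of the gene, Slc2a1 led in WT with 86.8 ± 10.7 (SD, n = 4). Its lowest WT library was above every other transporter. Slc16a1 (33.9 ± 2.34), Mfsd2a (33.6 ± 6.83) and Slc7a5 (30.9 ± 3.50) came next in RPKM, and neighbours in that order overlapped. Abcb1a followed with 11.4 ± 1.26 RPKM, below every library of Slc7a5, then Slco1a4 (9.99 ± 1.34), Slco1c1 (8.43 ± 1.00) and Abcg2 (7.32 ± 0.568), each overlapping its neighbour. The order in the KO-labelled libraries was the same, with 42.2 ± 3.58 RPKM (SD, n = 3) for Slc16a1 against 26.1 ± 2.41 for Mfsd2a, and there Slc16a1 and Mfsd2a did not overlap. With the longest transcript as the length the order changed, with 35.2 RPKM in WT for Mfsd2a, above the 33.9 of Slc16a1, and with 16.8 RPKM in WT for Slco1a4 and 13.8 for Slco1c1, above the 12.5 of Abcb1a.

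Pan-endothelial markers had larger negative differences. Of the 15 markers tested, 14 had negative differences, with a median log2 fold change of -0.61 beside -0.07 for the 8 transporters. Cdh5, which encodes VE-cadherin of the junctions between EC, was lower and the 1 marker that passed, at 49.0, 50.3 and 42.6 CPM against 89.4, 70.7, 107 and 74.3 CPM in WT. Its log2 fold change was -0.85 (SE 0.15, adjusted p = 0.0466 from edgeR), where 0.915% of all genes were called lower. The call was kept without WT replicate 3 (-0.72) and lost without any other library, and it missed the threshold with sex as a covariate (adjusted p = 0.0912) and with upper-quartile scaling (adjusted p = 0.0544). Of the 15 markers limma-voom called 0 (1.31% of all genes) and DESeq2 4 (9.14%). At an unadjusted p under 0.05 from edgeR were 9 markers (20.9% of all genes), and the groups did not overlap for 10 (26.9%). Pecam1, which encodes CD31, was counted at 76.7, 60.6 and 63.7 CPM against 86.9, 67.5, 138 and 72.6 CPM in WT, with a log2 fold change of -0.45 (adjusted p = 0.324 from edgeR). The median of the markers was -0.39 without WT replicate 3.

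**Figure D2:**
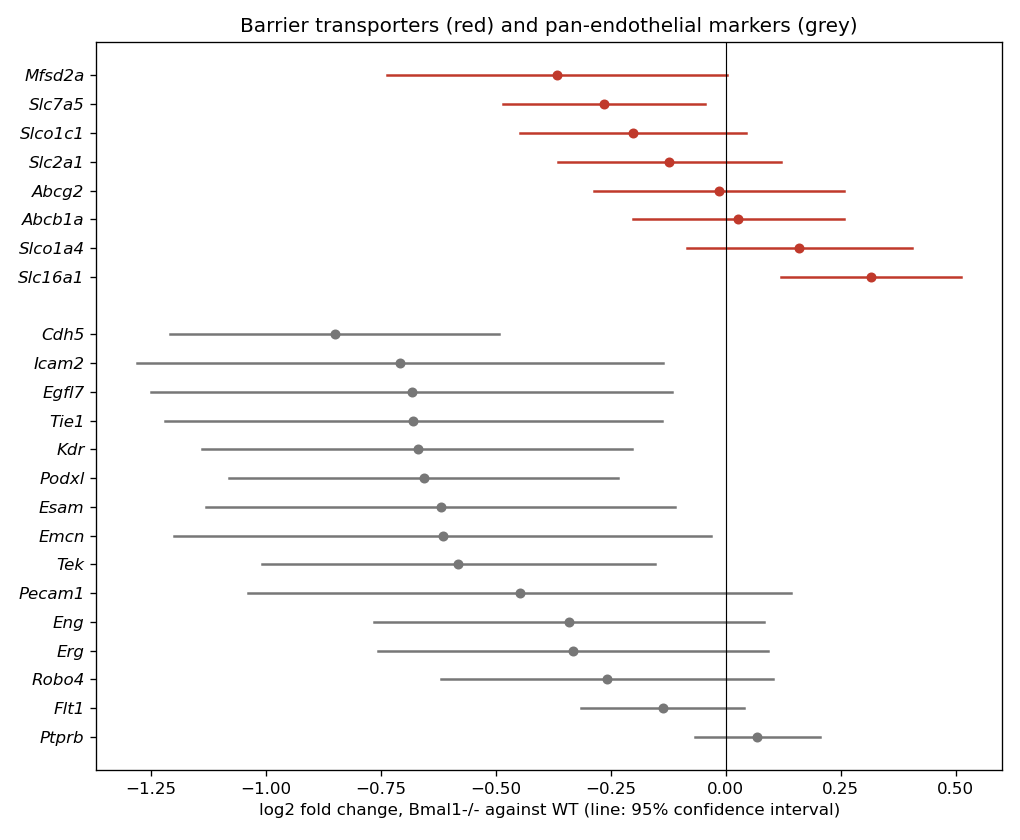
Log2 fold change of the KO-labelled libraries against WT (horizontal axis) for the 8 transporters in red and the 15 pan-endothelial markers in grey, with lines for the 95% confidence interval. The intervals of 6 transporters include 0, and the markers run from -0.85 for Cdh5 to 0.07 for Ptprb.

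In WT replicate 3 transporters and endothelial markers parted. Its Pecam1 was 1.83 times, its Emcn 1.86 times and its Egfl7 1.83 times the mean of the other WT libraries, and all 15 markers were higher there, from 1.10 times for Ptprb. Its Mfsd2a was 0.731 times that mean, Slco1c1 0.803 times, Abcb1a 0.812 times, Slc7a5 0.862 times and Slco1a4 0.864 times. Slc16a1 (1.13 times), Abcg2 (1.16 times) and Slc2a1 (1.23 times) were higher there. So 5 transporters were below and 3 above the other WT libraries in the library with the highest summed level of endothelial markers. The 23 genes that specify the barrier, described below, ran in this library from 0.720 times that mean for Tspan12 to 1.9 times for Sox7. Of the tight junction, Cldn5 was 1.78 and Ocln 1.25 times that mean. Ndp and Fzd4 of the Norrin pathway were 0.801 and 1.04 times.

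**Figure D3:**
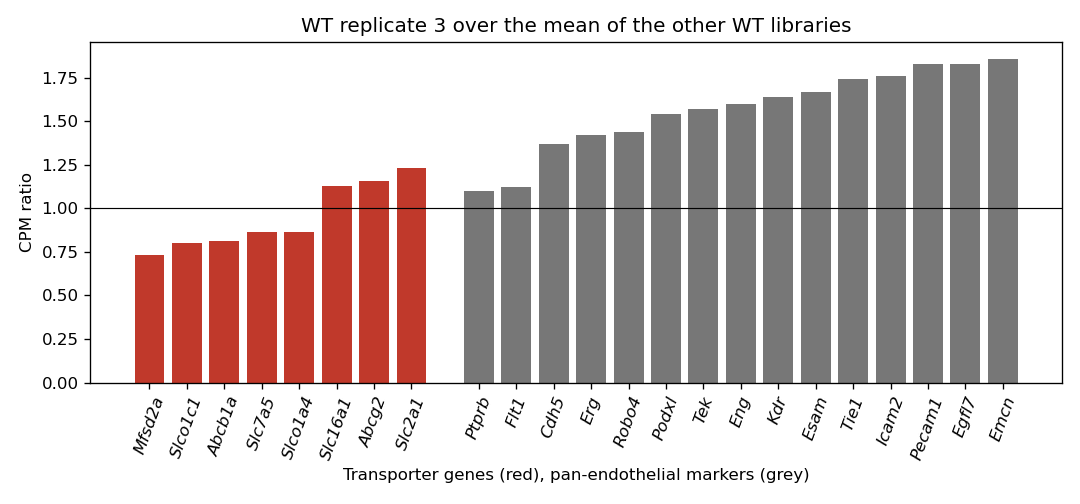
CPM of WT replicate 3 divided by the mean CPM of the other 3 WT libraries (vertical axis, from 0) for the 8 transporters in red and the 15 pan-endothelial markers in grey, with a line at 1. All grey bars are above 1, and 5 of the 8 red bars are below it, the lowest being Mfsd2a at 0.731.

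To set each transporter beside the endothelial RNA of the same library, the mean log2 CPM of the 15 markers was subtracted from its own log2 CPM. That mean was 5.15, 4.97 and 5.01 in the KO-labelled libraries and 5.44, 5.27, 5.99 and 5.36 in WT. The groups differed by -0.47 (exact two-sided permutation test, p = 0.0571, where 3 against 4 libraries allow no p under 0.0286), and by -0.31 without WT replicate 3. On this relative log2 scale all 8 transporters had positive differences, and the groups did not overlap for Slc16a1, Slco1a4, Abcg2 and Slc2a1. Because the subtracted mean was lower in the KO-labelled libraries, a gene with an unchanged CPM gets a positive difference on this scale. The shares of all genes like this were not computed, so these counts alone say nothing particular to the transporters.

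The relative log2 level of Slc16a1 was 2.53, 2.53 and 2.44 in the KO-labelled libraries and 1.78, 1.94, 1.38 and 1.77 in WT. The difference was 0.78, and 0.67 without WT replicate 3 (exact permutation test, p = 0.0286, adjusted p = 0.114 over the 8 genes). The glucose carrier had the other separation at the smallest p possible here. Slc2a1 was at 3.02, 3.15 and 3.08 against 2.82, 2.78, 2.48 and 2.83 in WT on that scale, a difference of 0.36 and of 0.27 without WT replicate 3 (exact permutation test, p = 0.0286, adjusted p = 0.114). Slco1a4 differed by 0.64 and Abcg2 by 0.45 on the relative scale (exact permutation tests, p = 0.0857 and 0.0571, adjusted p = 0.171 and 0.152). The groups overlapped for Abcb1a (difference 0.50, adjusted p = 0.229), Slco1c1 (0.27, adjusted p = 0.648), Slc7a5 (0.21, adjusted p = 0.751) and Mfsd2a (0.12, adjusted p = 0.943, exact permutation tests). Without WT replicate 3 the relative differences were 0.43 for Slco1a4, 0.34 for Abcg2 and 0.27 for Abcb1a. They were 0.04 for Slco1c1, 0.001 for Slc7a5 and -0.15 for Mfsd2a. No transporter passed after adjustment, with 2 at an unadjusted p under 0.05. With no p under 0.0286 possible, no gene could pass the adjustment over 8 genes on its own, however far apart its groups were. The share of all genes at an unadjusted p under 0.05 on this scale was not computed. With Cdh5, the marker with the largest fall, as the only marker subtracted, 5 passed at an adjusted p of 0.0457 by the exact permutation test, namely Slc16a1, Slco1a4, Abcb1a, Abcg2 and Slc2a1, and with Pecam1 alone 0 passed. Cdh5 was itself called lower in these libraries (-0.85), so subtracting it raises the difference of any gene. The share of all genes that would pass in this way was not computed.

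**Figure D4:**
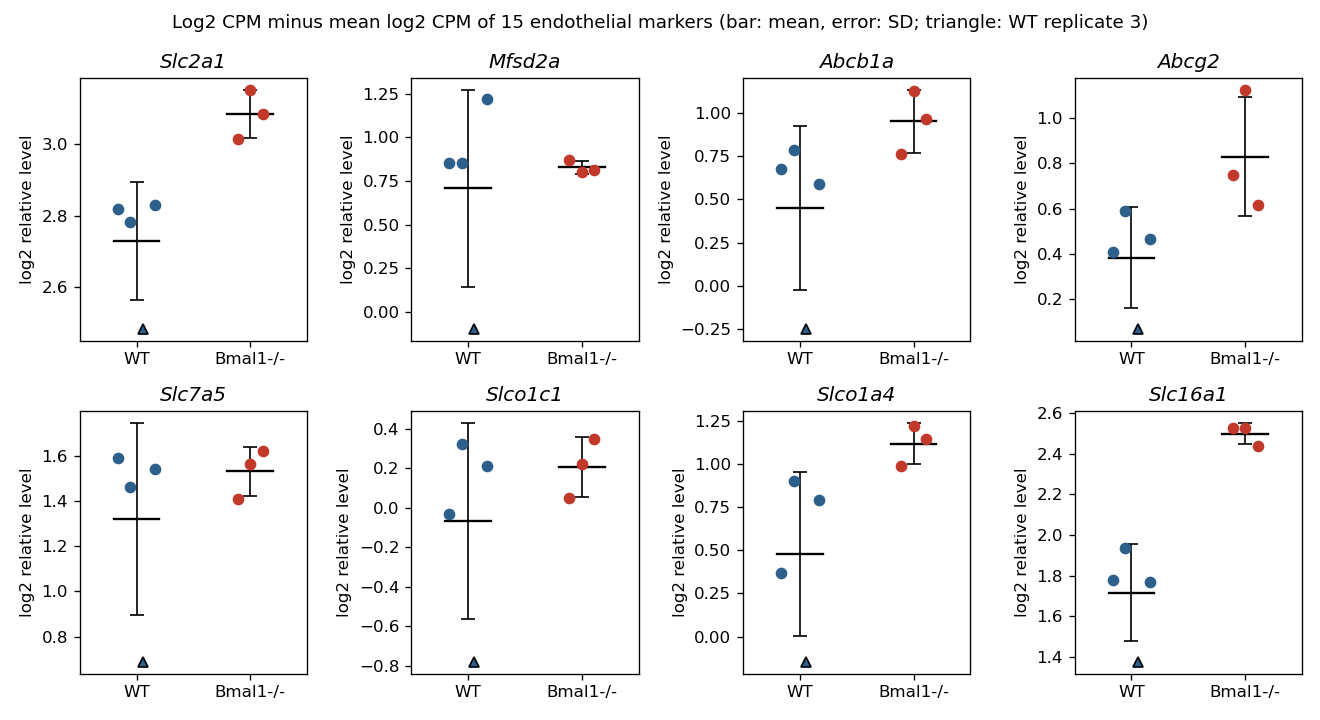
Log2 CPM of each transporter minus the mean log2 CPM of 15 endothelial markers (vertical axes, of a different range in each panel and not from 0) by library, with the mean and SD of each group. WT replicate 3, drawn as a triangle, is the lowest library in all 8 panels, and the groups are separate for Slc2a1, Abcg2, Slco1a4 and Slc16a1.

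Summed levels of other cells' markers stand beside these values, and edgeR called 0 of the markers of astrocytes, neurons, pericytes and Schwann cells (1.57% of all genes). At an unadjusted p under 0.05 (20.9% of all genes) were 5 of 12, 1 of 10, 5 of 10 and 4 of 4 of them in that order. In each list limma-voom called 0 (1.31% of all genes), and DESeq2 called 2, 1, 3 and 4 (9.14%). Astrocyte markers, 12 genes led in abundance by Gfap, summed to 18560 to 21060 CPM in the KO-labelled libraries and 12370 to 17660 in WT. Gfap alone was at 11640 against 8702 CPM in the group means, while 5 of the 12 had negative differences, such as Aldh1l1 (-0.47) and Slc1a3 (-0.44), and the median log2 fold change was 0.19. The 10 neuron markers summed to 5755 to 6901 CPM against 2328 to 5687. Pericyte markers summed to 400.7 to 496 CPM against 501.8 to 586.7, with a median log2 fold change of -0.25. Of these 10 markers 7 had negative and 3 positive differences, the latter with Notch3 (0.33) and Abcc9 (0.26). The 11 oligodendrocyte markers summed to 24480 to 30060 CPM against 24620 to 35870 and overlapped. Red cell markers, 8 genes that include Hbb-bt of hemoglobin, were at 27.41 to 63.44 CPM against 154.8 to 472.2, and 6 skeletal muscle markers at 4.448 to 5.735 against 40.33 to 53.13. Macrophage markers summed to 7468 to 8750 CPM against 6293 to 14150 and microglia markers to 1191 to 1384 against 1252 to 1647, with overlap in both. Markers of Schwann cells summed to 3.584 to 10.17 CPM against 20.17 to 242.1. Fibroblast markers, 7 genes, summed to 378.1, 2233 and 299.3 CPM in KO-labelled replicates 1 to 3 and to 1111 to 1849 in WT. The 7 markers of oligodendrocyte precursors summed to 727.3 to 846.2 CPM against 456.3 to 693.6, with a median log2 fold change of 0.29. Of both lists edgeR called 0 (1.57% of all genes), with 1 and 2 genes at an unadjusted p under 0.05 (20.9%). Sums of neutrophil and of ependymal markers overlapped. Hbb-bt passed the test in the red cell list, and Ckm, Acta1, Tnnc2, Atp2a1 and Mylpf in the muscle list, all lower, where 0.915% of all genes were. With single libraries left out, the call of Hbb-bt was kept in 2 of 7 fits, those of Ckm and Mylpf in 3, that of Acta1 in 6 and those of Tnnc2 and Atp2a1 in all 7, and Hbb-bt also missed the threshold with limma-voom (adjusted p = 0.0601) and with sex as a covariate (adjusted p = 0.0611 from edgeR). Their part in the transporter values was not tested.

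Of 30 further carriers and receptors of the barrier, 22 had negative and 8 positive differences, with a median log2 fold change of -0.12. With edgeR 0 passed the test (1.57% of all genes), with 9 at an unadjusted p under 0.05 (20.9% of all genes), while limma-voom called 0 (1.31%) and DESeq2 6 (9.14%). The largest differences were those of Slco2a1, the prostaglandin transporter, and Slc38a5, a glutamine transporter. Slco2a1 was counted at 2.97, 7.94 and 2.61 CPM in the KO-labelled libraries and at 15.2, 13.2, 23.8 and 12.3 CPM in WT, with a log2 fold change of -1.83 (SE 0.44, adjusted p = 0.096 from edgeR). The groups were apart, and the gene passed edgeR's test only without KO-labelled replicate 2, the highest library of its group, where the log2 fold change was -2.52. DESeq2 called Slco2a1 on all 7 libraries (adjusted p = 0.00063). Slc38a5 was counted at 6.99, 7.92 and 3.83 CPM against 9.06, 15.1, 26.6 and 14.1 CPM in WT, with a log2 fold change of -1.38 (SE 0.40, adjusted p = 0.14 from edgeR). DESeq2 called it on all 7 libraries as well (adjusted p = 0.00923).

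Among 23 family members and partners of the 8 transporters, 14 had negative and 9 positive differences, where 51.1% of all genes had negative ones. Slco1a5 was lower and the 1 gene that passed, where 0.915% of all genes were called lower. Slco1a5, a close paralog of Slco1a4, was near the lower limit of the counts, at 0.483, 0.325 and 0.279 CPM against 1.53, 0.900, 1.4 and 1.21 CPM in WT. Its log2 fold change was -1.79 (SE 0.28, adjusted p = 0.0328 from edgeR), kept without WT replicate 2 or 3 and lost without any other library (-2.05 to -1.64) and with sex as a covariate (adjusted p = 0.0647). Slc16a3, which encodes the lactate exporter MCT4, was counted at 27.6, 23.5 and 21.8 CPM against 32.4, 25.1, 51.7 and 35.2 CPM in WT. Its log2 fold change of -0.57 (SE 0.23, adjusted p = 0.228 from edgeR) was opposite in sign to that of Slc16a1, and it was -0.35 without WT replicate 3. Bsg, which encodes the chaperone basigin of MCT1, was counted at 557.8, 563.2 and 550.5 CPM against 531.4, 510.3, 531.6 and 468.9 CPM in WT, with a log2 fold change of 0.13 (SE 0.08, adjusted p = 0.351 from edgeR). It was named, like Slc3a2 and Abcb1b, as partner or paralog and not by size.

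Of 23 genes that specify the barrier, chiefly Wnt and Norrin signalling with tight junction genes, 22 had negative differences, where 51.1% of all genes did, and 3 were lower by the test, where 0.915% of all genes were. The median log2 fold change was -0.25. Ndp, the ligand Norrin, was counted at 6.35, 6.78 and 5.94 CPM in the KO-labelled libraries and at 13, 13.6, 10.6 and 13.3 CPM in WT. The groups stood well apart, with a log2 fold change of -0.99 (SE 0.12, adjusted p = 0.0107 from edgeR), and the call was lost without KO-labelled replicate 1 or 3 (over all single omissions, -1.06 to -0.94). Apcdd1, an inhibitor of Wnt signalling, had a log2 fold change of -0.43 (SE 0.07, adjusted p = 0.0328 from edgeR), and Tcf7, a transcription factor of that pathway, one of -0.79 (SE 0.13, adjusted p = 0.0392). Both calls were lost without any library other than WT replicate 3, without which they were kept at -0.38 and -0.75. Both were also lost with sex as a covariate (adjusted p = 0.0611 and 0.0647 from edgeR). The endothelial transcription factors Sox7 (-1.06, adjusted p = 0.144) and Foxq1 (-1.0, adjusted p = 0.0577 from edgeR) had the largest differences. Without WT replicate 3 edgeR called 8 genes of this list (4.66% of all genes), and DESeq2 on all 7 libraries called 10 (9.14% of all genes).

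Transcytosis, which Mfsd2a is known to hold down, was followed by 7 genes of caveolae and fenestrae. All 7 had negative differences and 0 passed edgeR's test (1.57% of all genes), with 1 at an unadjusted p under 0.05 (20.9%), and limma-voom (1.31%) and DESeq2 (9.14%) called 0. Their median log2 fold change was -0.12, and -0.23 to -0.088 with each library left out. The coat genes Cavin1 (-0.55, adjusted p = 0.225 from edgeR) and Ehd2 (-0.43, adjusted p = 0.245) had the largest differences. Cavin1 was -0.83 without KO-labelled replicate 2, and without KO-labelled replicate 3 Ehd2 was -0.27 and Cavin1 -0.38.

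Of 15 genes of the amino acid response, the programme that LAT1 belongs to, 8 had negative and 7 positive differences, with a median log2 fold change of -0.02. Lower by the test were 2 of them, where 0.915% of all genes were. Slc7a11, the cystine-glutamate exchanger that shares the heavy chain Slc3a2 with Slc7a5, was counted at 19.8, 32.8 and 18.6 CPM against 93.3, 74.8, 50.8 and 64.0 CPM in WT. The groups did not overlap, and the log2 fold change was -1.57 (SE 0.27, adjusted p = 0.0419 from edgeR). The call was kept without KO-labelled replicate 2 or WT replicate 3 and lost without any other library (-1.88 to -1.41). Phgdh, of serine synthesis, was counted at 59.7, 61.5 and 63.3 CPM against 82.4, 85.4, 75 and 90.1 CPM in WT, with a log2 fold change of -0.44 (SE 0.07, adjusted p = 0.0369 from edgeR), a call that of all single omissions was kept only without WT replicate 3 (-0.48) and was lost with sex as a covariate (adjusted p = 0.0782). The pseudokinase gene Trib3 had a log2 fold change of -0.74 (SE 0.30, adjusted p = 0.231), and of -0.47 without WT replicate 3.

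Thyroid hormone handling, to which Slco1c1 belongs, had 8 tested genes, 6 with positive and 2 with negative differences and a median log2 fold change of 0.22 (0.084 without WT replicate 3). With edgeR 0 passed, with 3 at an unadjusted p under 0.05 (20.9% of all genes), while limma-voom called 0 (1.31%) and DESeq2 2 (9.14%). Thra, the receptor TRα, was counted at 380.3, 363.5 and 414 CPM against 287, 287, 206 and 279 CPM in WT, with a log2 fold change of 0.54 (SE 0.13, adjusted p = 0.0923 from edgeR). Exons of Nr1d1 on the opposite strand, a gene with a log2 fold change of -2.51, overlap Thra. The strand setting of the counting is not given, and the part of this overlap in the Thra value was not tested. Without WT replicate 3, the lowest library, Thra passed edgeR's test at 0.44. Dio3, the deiodinase that inactivates the hormone, stayed under 1 CPM in all 7 libraries and had a log2 fold change of -2.14 (SE 0.55, adjusted p = 0.107 from edgeR), with a call by edgeR only without KO-labelled replicate 2 (-3.26). The 2 genes called by DESeq2 were Thra (adjusted p = 0.00268) and Dio3 (adjusted p = 0.0144).

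**Figure D5:**
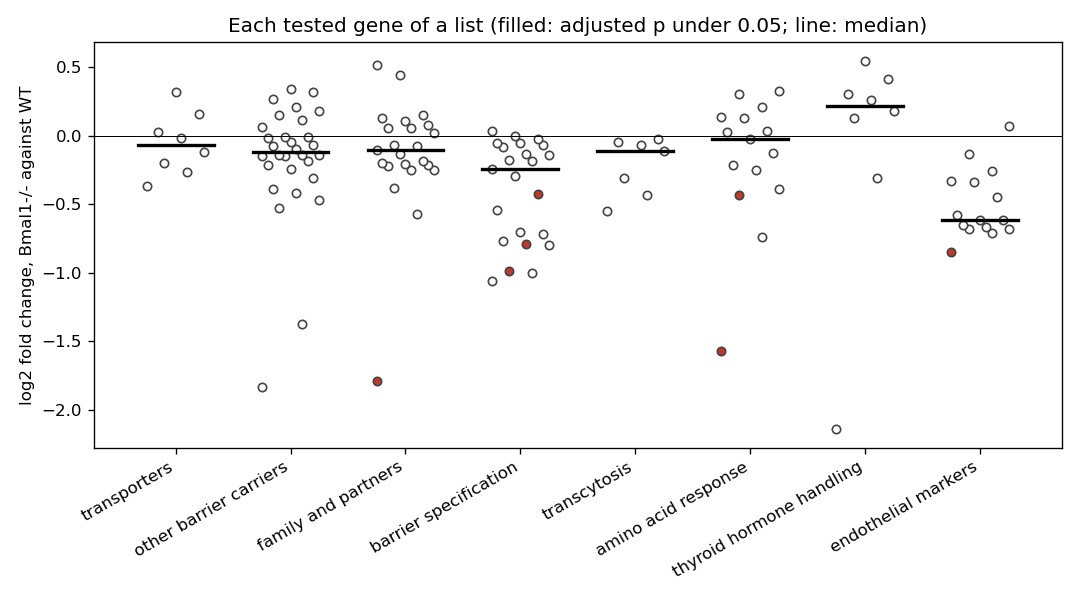
Log2 fold change (vertical axis) of each tested gene in the 8 transporters, 6 related lists and the endothelial markers (horizontal axis), with a line at the median and filled points for an adjusted p under 0.05 from edgeR. No transporter is filled, 7 points of the other lists are, all below 0, and the endothelial markers have the lowest median at -0.61.

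The genes whose pattern over the 7 libraries was most like that of a transporter are given as a description. By Pearson's r of log2 CPM over 7 libraries, which share genotype and the WT replicate 3 library, Slc2a1 was most like Il4ra (r = 0.9947) and Tmem37 (r = 0.9895), and Abcg2 most like Nupr1 (r = 0.9925) and Smpdl3a (r = 0.9882). Slc16a1 was most like Afap1l2 (r = 0.9886) and Fut2 (r = 0.9792), and Slc7a5 most like Eif4g1 (r = 0.9575) and Ivd (r = 0.9574). Mfsd2a was most like Frmd7 (r = 0.9607) and Gtpbp1 (r = 0.9478). Abcb1a was most like Ust (r = 0.9786) and Kcnu1 (r = 0.9702), Slco1c1 most like Med1 (r = 0.9761) and Hhip (r = 0.9676), and Slco1a4 most like Chdh (r = 0.9731) and Ccdc174 (r = 0.9727). No gene led the order for more than 1 transporter.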

How the data were processed

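Polyadenylated RNA of 7 injured spinal cords was sequenced from stranded libraries. The authors checked reads with FastQC 0.10.1, aligned them with Tophat 2 to GRCm38 and counted them per gene with HTSeq 0.10.0 (versions per the submitters' processing notes). They deposited raw counts without normalization. The annotation release and the strand setting of the counting are not given in the sources used here, so genes under an antisense gene are uncertain.

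Counts were filtered with edgeR's filterByExpr, normalized with TMM and compared by genotype with edgeR's quasi-likelihood test (edgeR 4.0.16, limma 3.58.1, R 4.3.3), with Benjamini-Hochberg adjustment over 15743 genes and a threshold of 0.05. Log2 CPM used a prior count of 2. Gene positions and lengths came from GENCODE release M21, in which 21939 of 21965 identifiers were found. Relative levels were compared with exact two-sided permutation tests. Totals were 38529644 to 44096737 counts per library. Counting error was not compared with the spread between mice, and it weighs most for genes near the lower limit of the counts, such as Slco1a5 and Dio3. The script was tested on simulated data. Alternatives were DESeq2 1.42.0, limma-voom, other scalings and filters, sex, a replicate block, other denominators and each library left out. The named genes are the 8 transporters, the called genes and 2 largest differences of each related list, called markers of cell types that can make a transporter, and the 2 genes most like each transporter, with exceptions stated. The transporters and the lists were chosen with earlier results of these data known. Plots were drawn with matplotlib 3.10.9.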

Additional observations from a re-analysis of the deposited data

Results flagged for a closer look

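In 10 of 40 groups of 4 WT libraries checked, the highest or lowest library stood apart from the rest, its gap to the nearest other library taking an unusually large share of the group's whole range. Chance gives about 1 in 20 such groups, and these groups share their libraries. WT replicate 3 was the library apart in 9 of the 10. Among the transporters, it was the lowest for the relative level of Slc2a1 (gap 0.862 of the range) and of Slc7a5 (0.856), and the highest for the CPM of Abcg2 (0.886).

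Among the other named genes WT replicate 3 was the highest library for Apcdd1 (0.902), Sox7 (0.906), Ehd2 (0.897), Hbb-bt (0.844) and Mylpf (0.94), and the lowest for Thra (0.896). WT replicate 4 was the highest for Tnnc2 (0.846).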

How the results depend on the processing

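Of 128 values of the 8 transporters under an alternative, 121 kept their direction and their side of the threshold, 3 newly passed it and 4 changed sign. The number of transporters called was 0 in the reported fit, 1 with DESeq2 on the same genes, 1 with DESeq2 on all genes with a count, 0 to 1 with each library left out (1 without WT replicate 3) and 0 under the other alternatives. The calls are all of Slc16a1, and the cause was not tested. With each library left out, Abcb1a ran from -0.0439 to 0.0742 and changed sign without KO-labelled replicate 2 (-0.0255) and WT replicate 3, and Abcg2 ran from -0.131 to 0.0951 and changed sign without KO-labelled replicate 3 and WT replicate 3 (0.041). The median log2 fold change of the 8 ran from -0.13 to -0.04 with each library left out. With Cdh5 alone, a marker itself called lower, as the denominator 5 relative levels passed instead of 0. The relative level of Mfsd2a ran from -0.147 (without WT replicate 3) to 0.291. With a library left out, 3 against 3 or 2 against 4 libraries cannot pass after adjustment, so those relative levels have no test.

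Over all genes, DESeq2 called 1494 where edgeR called 247, and with each library left out edgeR called 57 to 730. Replicate numbers did not pair the libraries (correlations of deviations of -0.17, 0.18 and -0.29). With a replicate block the median of the transporters was -0.09, 0 of the 8 and 0 of all genes were called, and 1590 genes had an unadjusted p under 0.05. With sex as a covariate Cdh5, Tcf7, Apcdd1, Slco1a5, Phgdh and Hbb-bt lost their calls and Ndp and Slc7a11 kept theirs. Single-library dependence and 3 against 4 mice limit these data, as do few reads for genes near the lower limit of the counts.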
